A study of Homo sapiens with 6 samples.

Results

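The regions described here are the stretches of chromatin where peaks were listed in all 3 conditions of an ATAC-seq study of LNCaP cells, 7149 of the 21031 regions formed by joining overlapping peaks (34.0%, 95% interval 33.4 to 34.6). ATAC-seq uses a transposase that inserts sequencing adapters into accessible DNA, so that open stretches collect many insertions and are called as peaks. LNCaP is a long-established human prostate cancer line that responds to androgen. The members were chosen from the peak lists themselves: peaks of different lists that overlapped by at least 1 bp were joined, and a region was kept where each of the 3 lists had at least 1 peak in it. Their number and their share are therefore a description of the rule and carry no test.

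The first group, shCON CDT, was control-hairpin cells after 72 hours of CDT, which the series text calls hormone deficient. In the second, shCON DHT, control-hairpin cells had the 72 hours of CDT and 3 hours of dihydrotestosterone (DHT). Cells with a hairpin against RB, kept for 72 hours in CDT, made up the third, shRB CDT. Each group had 2 libraries, and the authors deposited 1 peak list per group, so no value below has a spread between replicates and none carries a p-value. Intervals are 95% binomial or order-statistic intervals over peaks or regions, which are not independent of their neighbours, and cover counting error only. The labels do not say whether the control or RB hairpin cells were a clone or a pool, and read depth and the level of RB are not analysed here.

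Accessible chromatin in a cell line includes promoters of widely used genes, binding sites of the insulator protein CTCF, and enhancers that hold the line's own transcription factors, which in luminal prostate cells include FOXA1, HOXB13 and the androgen receptor. DHT binds the androgen receptor, which then occupies enhancers, many of them already accessible through FOXA1. RB is a repressor that binds E2F transcription factors at promoters of cell cycle genes. Which of these kinds of site make up the common regions was not analysed here, because neither a gene annotation nor the sequence of the files' build, hg19, was at hand, and for the same reason no gene is named and the cell type markers of LNCaP were not checked.

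The common regions held a different share of each list. In shCON CDT, 7420 of 12096 peaks lay in them (61.3%, 60.5 to 62.2). The figure in shCON DHT was 7687 of 12896 peaks (59.6%, 58.8 to 60.5). In shRB CDT it was 7362 of 14788 (49.8%, 49.0 to 50.6). These shares lay closer together when only the best-scoring peaks of each list were kept, as many as the shortest list has. The common regions then held 58.8%, 60.8% and 58.0% of the peaks in the same order, and shCON DHT stood highest. This cut also raised the lowest score kept to 433 in shCON DHT and 500 in shRB CDT, so the part of list length alone was not tested. By covered sequence the common regions held 8.20 of 11.7 Mb (70.2%) in shCON CDT, 7.21 of 10.3 Mb (69.7%) in shCON DHT and 8.68 of 15.0 Mb (57.9%) in shRB CDT. The share by sequence exceeded the share by peaks in every list, because common peaks were wider. Median widths inside and outside the common regions were 1080 and 682 bp for shCON CDT, 932 and 551 bp for shCON DHT, and 1160.5 and 793 bp for shRB CDT.

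Peaks of high score and large width were most often common. The score is the authors' own whole number per peak, from 413 to a top value of 1000, and no source used here says whether it has the same scale in every list. It is used to order peaks within a list, to sort them into bands, and to count peaks at the top value. It also serves to count regions below 500 in every list and, as a sum over the lists, to pick regions to name. Setting the lists side by side at equal score, in the bands or at the top value, reads them as if they shared a scale. At the top score, 95.01% of shCON CDT peaks (94.3 to 95.7), 96.8% of shCON DHT peaks (96.1 to 97.3) and 90.0% of shRB CDT peaks (89.1 to 90.8) lay in a common region. In the lowest band, scores of 413 to 500, the shares were 18.9% (17.3 to 20.6), 19.8% (18.3 to 21.3) and 10.2% (9.07 to 11.4). The shRB CDT share was the lowest of the 3 in every one of the 7 score bands, with the widest distance in the middle: at 601 to 700 it was 25.3% (23.2 to 27.6) against 49.6% (46.8 to 52.3) in shCON CDT and 57.9% (55.3 to 60.4) in shCON DHT. With lists of equal length it was still the lowest in the 6 bands from 501 up, for example 24.7% (22.6 to 27.0) at 601 to 700, against 45.3% (42.6 to 48.1) in shCON CDT and 55.1% (52.6 to 57.7) in shCON DHT. The scores may not mean the same in every list, and the part of this in the contrasts between lists at equal score was not tested.

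**Figure D1:**
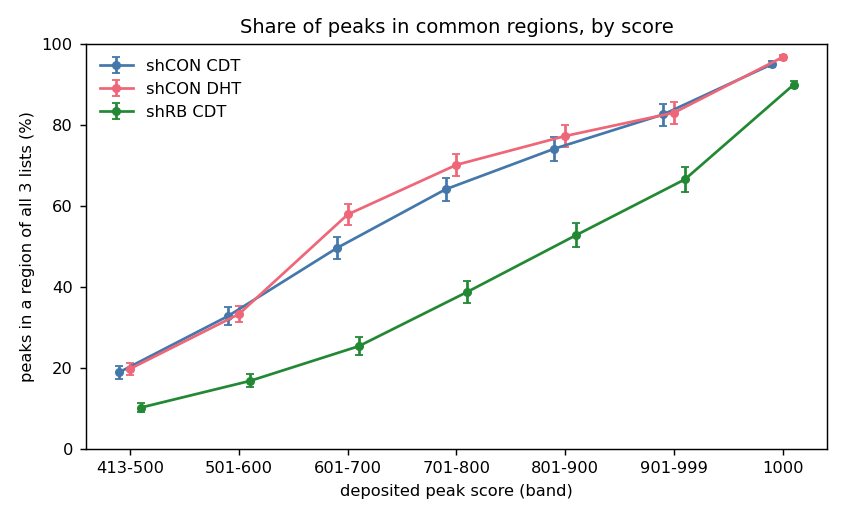
Share of each list's peaks that lay in a region of all 3 lists (vertical axis, percent) by band of the deposited score (horizontal axis); points are shares, bars are exact 95% binomial intervals, and colours are the 3 lists. All 3 lines climb with score, and the shRB CDT line runs below the others, from 10.2% in the lowest band to 90.0% at the top score. The lists may not share a scale of score, so equal bands need not match between lists.

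Within broad bands of score, wide peaks were more often common than narrow ones. Score was not held fixed inside a band: in shCON CDT the share was 18.9% at 413 to 500 and 32.8% at 501 to 600. Among shCON CDT peaks with scores of 413 to 600, the common share was 12.0% at widths up to 500 bp and 44.4% above 1000 bp. The same bands gave 14.1% and 53.3% in shCON DHT, and 7.10% and 20.7% in shRB CDT. At the top score, the common share was again lower for narrow peaks than for wide ones: 76.4% (69.9 to 82.0) against 97.3% (96.6 to 97.9) in shCON CDT, 89.1% (84.5 to 92.8) against 99.0% (98.4 to 99.4) in shCON DHT, and 66.2% (59.0 to 72.8) against 92.8% (92.0 to 93.7) in shRB CDT. A wider peak also has more bases with which to overlap another, so part of this gradient is built into the rule. With every peak reset to 500 bp around its midpoint, 7052 common regions were found, close to the 7149 from the deposited widths. This count does not show what became of the gradient, because the common share by deposited width was not computed after the reset.

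The 3 peaks of a common region mostly lay on top of each other, although the rule asked only for chains of overlaps of 1 bp. The regions spanned 9.86 Mb, of which 6.13 Mb (62.2%) was covered by peaks of all 3 lists, 1.96 Mb (19.8%) by exactly 2 and 1.77 Mb (18.0%) by 1. The median region was 1353 bp wide (quartiles 1111 and 1619 bp) with 833 bp (635 and 1049 bp) covered in all 3 conditions. The bases common to all 3 lists made up a median of 64.8% of the region, and at least 50% in 5644 of the 7149 regions (78.9%). In 21 regions no base was common to all 3 lists. There the peak of 1 list bridged the peaks of the others, and the bridging peak was from shRB CDT in 14 regions, shCON CDT in 5 and shCON DHT in 2.

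Few regions stood near the edge of the rule. The smallest overlap holding a region together was under 50 bp in 58 regions (0.811%), and its median was 807 bp. Just inside the rule, a link of 1 bp joined the peaks on chromosome 17 from 38375055 to 38376289, and links of 2 bp joined those at another site of chromosome 17, from 17743294 to 17744184, and at chromosome 20 from 9048127 to 9050275. Just outside it, the shCON DHT and shRB CDT peaks on chromosome 15 from 78591403 to 78591623 lay 16 bp from a shCON CDT peak. A like pair on chromosome 4 from 83413136 to 83413403 lay 25 bp from one. The shCON CDT and shCON DHT peaks on chromosome 1 from 155063987 to 155064554 lay 41 bp from a shRB CDT peak. Of the 3206 regions with peaks in exactly 2 lists, 59 (1.84%) had a peak of the missing list within 500 bp, and the median distance to one was 45.5 kb. Missing the rule by a small gap was thus uncommon in the regions of 2 lists.

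At most common regions each condition had a single peak. This held for 6240 regions (87.3%, 86.5 to 88.0). Of the other 909, most were split into several peaks in 1 condition alone: 456 in shCON DHT, 212 in shCON CDT and 165 in shRB CDT. In all, shCON DHT had 2 or more peaks in 518 regions (7.25%, 6.66 to 7.87), shCON CDT in 266 (3.72%, 3.29 to 4.19) and shRB CDT in 210 (2.94%, 2.56 to 3.36). The gaps between such peaks were short, with medians of 79 bp for shCON DHT, 76 bp for shCON CDT and 77 bp for shRB CDT. At the 439 regions where only shCON DHT was split, into 2 peaks, the single peaks of both other lists ran across the gap in 308 (70.2%, 65.6 to 74.4). The corresponding numbers were 124 of 208 (59.6%, 52.6 to 66.3) for shCON CDT and 73 of 163 (44.8%, 37.0 to 52.8) for shRB CDT. The share was thus highest for gaps in shCON DHT and lowest for gaps in shRB CDT, and the shCON CDT interval overlapped both others. The 2 split peaks of shCON DHT summed to a median of 1116 bp, against 1286.5 bp for the mean of the other lists' peaks. The same values were 1261 and 1227.5 bp for shCON CDT, and 1328 and 1181 bp for shRB CDT. The part of peak width in the order of the shares was not tested. The smallest gap between peaks in any list was 48 to 54 bp, so that closer peaks were not listed separately.

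Peak width at the same site differed between conditions. At the 6240 regions with 1 peak of every list, the median width was 968 bp in shCON DHT (quartiles 752 and 1196), 1094 bp in shCON CDT (854 and 1360) and 1165 bp in shRB CDT (922 and 1430). The 3 distributions overlapped widely. The 5th percentiles of shCON DHT and shCON CDT were 483 and 533 bp and their 95th percentiles 1577 and 1799 bp. The distance between these lists in bp was thus larger among wide peaks. Taken site by site, shCON DHT had the narrowest of the 3 peaks at 3527 regions (56.5%), shCON CDT at 1653 (26.5%) and shRB CDT at 1018 (16.3%). The widest peak was from shRB CDT at 2989 regions (47.9%), shCON CDT at 2199 (35.2%) and shCON DHT at 1010 (16.2%). The most frequent of the 6 possible orders, shCON DHT below shCON CDT below shRB CDT, was found at 1920 regions (30.8%). The order with shRB CDT narrowest and shCON DHT widest was the rarest, at 426 (6.83%).

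**Figure D2:**
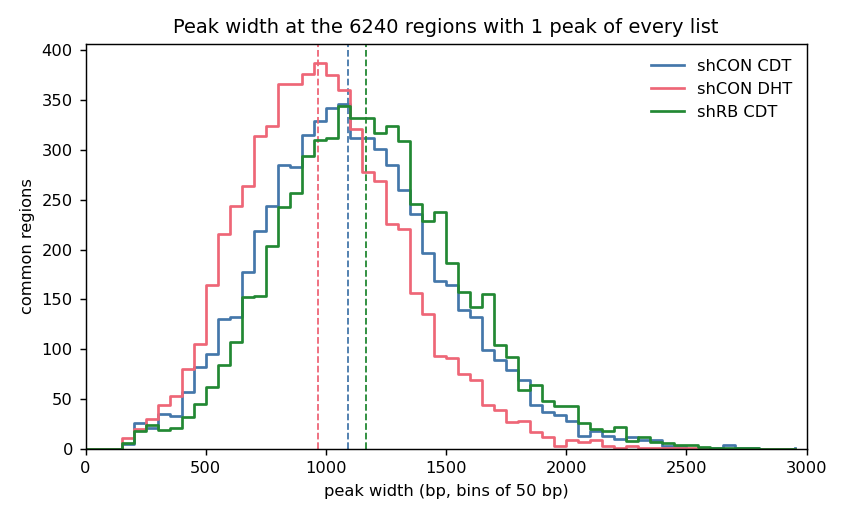
Number of common regions (vertical axis) by peak width in bins of 50 bp (horizontal axis) at the 6240 regions with exactly 1 peak of every list; solid lines are the 3 lists and dashed lines their medians. The shCON DHT curve lies to the left with a median of 968 bp, followed by shCON CDT at 1094 bp and shRB CDT at 1165 bp, and the 3 curves overlap widely.

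In DHT-treated cells the peak was narrower than in shCON CDT at 4137 of the 6240 regions (66.3%). Against the shCON CDT peak of the same region, the shCON DHT start lay a median of 41 bp later. The shCON DHT end lay a median of 37 bp earlier. These medians are taken separately, so they do not show that a given peak was shorter at both edges. The signed midpoint shift had a median of 2.5 bp, in which shifts to the left and right cancel. Regardless of direction, the median midpoint shift was 95.5 bp. The shCON DHT peak lay wholly inside the shCON CDT peak at 2321 regions (37.2%), and the reverse held at 922 (14.8%). The shCON CDT peak was at least 1.5 times as wide at 1031 of the 6240 regions (16.5%), where the same count over all 6933 regions with 1 peak of both lists was 17.4%. The shCON DHT peak was at least 1.5 times as wide at 303 (4.86%), against 5.50% over those 6933. Both shares were slightly below the values over all 6933 regions. The 6240 common sites are themselves most of the 6933, so the 2 values must lie close. They do not show how far the common sites differ from the remaining shared sites.

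In shRB CDT the peak was wider than in shCON CDT at 3587 of the 6240 regions (57.5%). Against the shCON CDT peak, the shRB CDT start lay a median of 14 bp earlier and the end a median of 13 bp later. The signed midpoint shift had a median of 0.0 bp, and the shift regardless of direction had a median of 83 bp. The shRB CDT peak enclosed the shCON CDT peak at 1903 regions (30.5%) and was enclosed by it at 1263 (20.2%). It was at least 1.5 times as wide at 648 regions (10.4%), against 12.0% of all 8026 regions with 1 peak of both CDT lists, and the shCON CDT peak was so at 250 (4.01%), against 5.01%. Set against each other, the shCON DHT and shRB CDT peaks differed most. The shRB CDT peak was at least 1.5 times as wide at 1307 regions (20.9%), against 22.5% of the 7590 regions with 1 peak of both lists, and the shCON DHT peak was so at 133 (2.13%), against 2.69%. Midpoints lay within 200 bp of each other at 79.5% of regions for shCON DHT and shCON CDT, 83.1% for shRB CDT and shCON CDT, and 80.4% for shCON DHT and shRB CDT, a closeness that the requirement of overlap in part fixes.

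The same shifts in width were found across the genome and across sites of different size. The median width ratio of shCON DHT to shCON CDT was below 1 on all 24 chromosomes, from 0.856 on chromosome 14 to 0.975 on chromosome 21, and its interval lay below 1 on 21. The ratio of shRB CDT to shCON CDT was above 1 on 22 chromosomes, with an interval above 1 on 15, and ran from 0.979 on chromosome 18 to 1.09 on chromosome X. When sites were ordered by the width of the third list, which the ratio does not use, the shCON DHT to shCON CDT ratio was 0.941 (0.920 to 0.958) in the narrowest of 5 equal bands and 0.860 (0.845 to 0.875) in the widest. The corresponding shRB CDT to shCON CDT ratio was 1.05 (1.03 to 1.06) in the narrowest band and 1.03 (1.01 to 1.04) in the widest. The shCON DHT to shCON CDT ratio was thus lowest where shRB CDT peaks were widest. Width in shRB CDT had a Spearman correlation of 0.654 with width in shCON CDT and 0.578 with width in shCON DHT. The bands therefore do not order the 2 lists equally well, and whether the ratio itself depends on site width was not tested. The shRB CDT to shCON CDT ratio fell slightly from band to band, from 1.047 to 1.026, with overlapping intervals in the narrowest and widest bands.

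The same directions were found outside the common sites. At the 528 regions with 1 peak each in shCON CDT and shCON DHT and none in shRB CDT, the ratio of shCON DHT to shCON CDT was 0.949 (0.898 to 0.981), against 0.896 (0.889 to 0.904) at the common sites. At the 1330 regions with 1 peak of both CDT lists only, the shRB CDT to shCON CDT ratio was 1.06 (1.04 to 1.08), against 1.04 (1.03 to 1.04). For shCON DHT over shRB CDT it was 0.820 (0.796 to 0.848) at 1138 regions of those lists only, against 0.860 (0.854 to 0.866). Outside the common regions, too, median width was lowest in shCON DHT and highest in shRB CDT, as given above. The files hold no read depth, and its part in the differences of width was not tested.

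The sites of extreme relative width show how 3 overlapping peaks can differ. The largest relative width of shRB CDT was on chromosome 5 from 1414113 to 1415560, where the peak was 1448 bp wide in shRB CDT, 333 bp in shCON CDT and 199 bp in shCON DHT. On chromosome 5 from 75378819 to 75380745 the widths were 1927, 524 and 327 bp in that order, and on chromosome 19 from 23253494 to 23254392 they were 899, 189 and 217 bp. All 3 regions had scores below 1000 in every list. The smallest relative width of shCON DHT was on chromosome 1 from 194071869 to 194074059, where a peak of 231 bp faced peaks of 2094 bp in shCON CDT and 1861 bp in shRB CDT. Next came chromosome 15 from 60883445 to 60885498, with 283, 1529 and 2054 bp, and chromosome 20 from 57465303 to 57467519, with 352, 2150 and 2217 bp. The widest relative peak of shCON DHT was on chromosome X from 119384408 to 119385742, with 1295 bp against 327 bp in shCON CDT and 330 bp in shRB CDT. Peaks widest in shCON CDT were led by chromosome 22 from 50969133 to 50970741, with 1609 bp against 319 bp for shCON DHT and 409 bp for shRB CDT. These sites are the extremes of 6240 and have no replicate check.

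Scores at the common regions were high but not uniform. The best peak of the region was at the top score in 4633 regions in shRB CDT (64.8%), 3692 in shCON CDT (51.6%) and 3276 in shCON DHT (45.8%). The same order held among all peaks of each list, of which 35.1%, 32.5% and 27.0% were at the top score. All 3 lists were at the top score in 2320 regions (32.5%, 31.4 to 33.6), and none was in 1716 (24.0%, 23.02 to 25.01). The remaining regions were at the top score in some conditions: 949 in shRB CDT alone, 828 in both CDT lists, 536 in shCON DHT and shRB CDT, 380 in shCON CDT alone, 256 in shCON DHT alone and 164 in both shCON lists. A pair that included shRB CDT was thus more frequent than the pair of the control lists, as the unequal shares of top scores in the lists would also give.

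**Figure D3:**
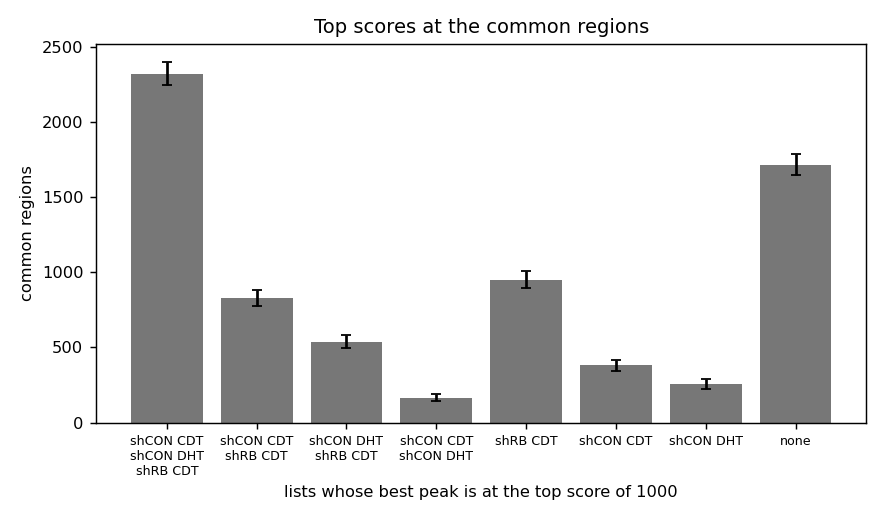
Number of common regions (vertical axis) by the set of lists whose best peak in the region had the top score of 1000 (horizontal axis); bars are counts from 0 and whiskers exact 95% binomial intervals. The tallest bars are all 3 lists, with 2320 regions, and none, with 1716, and the lowest is both shCON lists, with 164.

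Regions with more lists at the top score were also better aligned. The bases common to all 3 lists made up a median of 58.3% of the region where no list was at the top score, 62.5% with 1, 65.3% with 2 and 69.6% with 3. The median number of such bases was 702.5 bp in the first and 955 bp in the last of these sets, where the median region width was 1296 and 1417 bp. Of the 21 regions without any base in all 3 lists, 16 had no list at the top score and none had all 3. The widest cores with all lists at the top score were 2455 bp on chromosome 8 from 101962540 to 101965419, 2235 bp on chromosome 19 from 54692918 to 54695492, 2091 bp at chromosome 11 from 115373490 to 115375836, 2083 bp at chromosome 6 from 41039521 to 41041765 and 2075 bp at chromosome 8 from 74205582 to 74208099. At the other end, 9 regions (0.126%) scored below 500 in every list, a limit that may not mean the same in each list. Picked by the lowest sum of scores, which ranks regions only if the lists share a scale, the first was chromosome 2 from 111489796 to 111490927, with a score of 416 for shCON CDT, 456 for shCON DHT and 424 for shRB CDT, and next was chromosome 16 from 25122721 to 25123462, with 441, 462 and 424. The other 3 of the 5 lowest were on chromosome 2 from 190525727 to 190527112, on chromosome 19 between 9250939 and 9251569, and on chromosome 3 from 133747916 to 133749571. These 5 regions had 403 to 929 bases in all 3 lists.

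Common regions were found on every chromosome in broadly similar proportion. The share of joined regions that were common ran from 27.3% on chromosome 18 (127 of 466, 23.3 to 31.5) to 38.8% on chromosome 19 (482 of 1242, 36.1 to 41.6). Besides chromosome 19, chromosomes 12 (37.5%, 34.5 to 40.5) and 16 (38.0%, 34.7 to 41.3) had intervals above the overall 34.0%. Besides chromosome 18, chromosomes 3 (30.4%, 28.0 to 32.9) and 8 (30.3%, 27.3 to 33.4) had intervals below it. Of the gene-poor chromosomes, 4 (36.0%) and 13 (35.3%) did not share the low value of 18. In number, common regions followed the protein-coding genes of a chromosome, counted in the RefSeq annotation of assembly GRCh38: over the 22 autosomes Spearman's rho was 0.97, a description over chromosomes that differ in length. For all joined regions it was 0.93, and for the share of regions that were common it was 0.56. Chromosome 18 had 47.0 common regions per 100 genes, the most of any autosome, but it also had 172.6 joined regions per 100 genes. Chromosome 11 had 29.4 and 83.8, and chromosome X had 17.1 and 45.6.

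The share of common regions with top scores in all 3 lists also differed between chromosomes. All 3 lists were at the top score in 20% of the common regions of chromosome X (29 of 145, 13.8 to 27.4), 21.4% on chromosome 6 (72 of 336, 17.2 to 26.2), 22.7% on chromosome 13 (27 of 119, 15.5 to 31.3), 23.5% on chromosome 22 (35 of 149, 16.9 to 31.1) and 24.9% on chromosome 15 (63 of 253, 19.7 to 30.7). Those 5 had intervals below the 32.5% of all common regions. Chromosomes 8 (39.4%, 33.6 to 45.5) and 7 (38.7%, 33.8 to 43.8) had intervals above it. On chromosome 6 all 3 lists had fewer regions at the top score than over all chromosomes: 43.8% against 51.6% in shCON CDT, 39.3% against 45.8% in shCON DHT and 57.1% against 64.8% in shRB CDT. Chromosome X showed the same with 42.1%, 35.2% and 53.1%, as did chromosome 13 with 36.1%, 36.1% and 55.5% and chromosome 22 with 46.3%, 40.3% and 61.7%. Chromosome 15 was lower in shCON CDT (45.5%) and shCON DHT (36.4%) but had 64.8% in shRB CDT. The number of copies of each chromosome in these cells is not in the files, and its part was not tested.

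**Figure D4:**
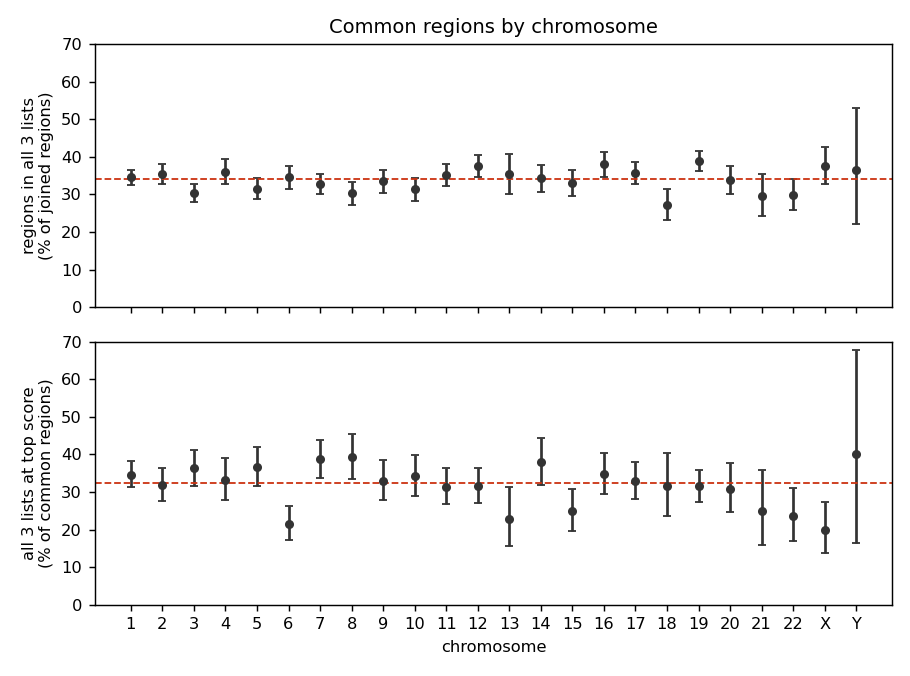
Upper panel, share of joined regions on each chromosome that had peaks in all 3 lists; lower panel, share of the common regions at which all 3 lists were at the top score (both vertical axes in percent, with exact 95% binomial intervals; dashed lines are the values over all chromosomes, 34.0% and 32.5%). The upper values lie between 27.3% and 38.8%, and the lowest values of the lower panel are 20% on chromosome X and 21.4% on chromosome 6.

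Along the chromosomes the common regions were spread widely, with a minority in dense stretches. The gap between neighbouring common regions had a median of 139 kb (quartiles 55.8 and 376 kb), and the nearest other common region lay at a median of 74.4 kb. Only 145 regions (2.03%) had none within 1 Mb. The most isolated were on chromosome 13 from 67804184 to 67805399, 6.83 Mb from the next, chromosome 9 from 44227307 to 44227709 at 5.61 Mb, and on chromosome X from 34675018 to 34675968 at 3.77 Mb. In windows of 1 Mb, 1998 windows held a common region, and 458 of them (22.9%) were enough to hold 50% of all. The fullest windows held 22 each: chromosome 19 between 11000001 and 12000000, and chromosome 16 between 30000001 and 31000000. The share of regions that were common was higher in well-filled windows: 25.2% (22.2 to 28.4) where a window held 1 or 2 regions of any class and 37.2% (35.7 to 38.7) where it held 21 or more. The region nearest to a common region was itself common in 37.8% of cases (36.7 to 39.0), against 33.7% (32.1 to 35.4) for regions of 2 lists and 27.3% (26.4 to 28.1) for regions of 1 list. Of all joined regions 34.0% were common. Where the nearest region lay over 5 kb away, the shares were closer, at 39.0%, 35.5% and 31.5% in the same order.

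Short gaps were rare. There were 32 gaps between common regions of 1 to 4 kb and 120 of 6 to 9 kb, although both ranges span 3 kb. The peaks of each single list showed the same: shCON CDT had 117 and 274 gaps of these sizes, shCON DHT had 91 and 269, and shRB CDT had 160 and 450. Within lists, on the other hand, gaps under 200 bp were frequent, numbering 600 for shCON CDT, 981 for shCON DHT and 666 for shRB CDT, which include the split sites described above.

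**Figure D5:**
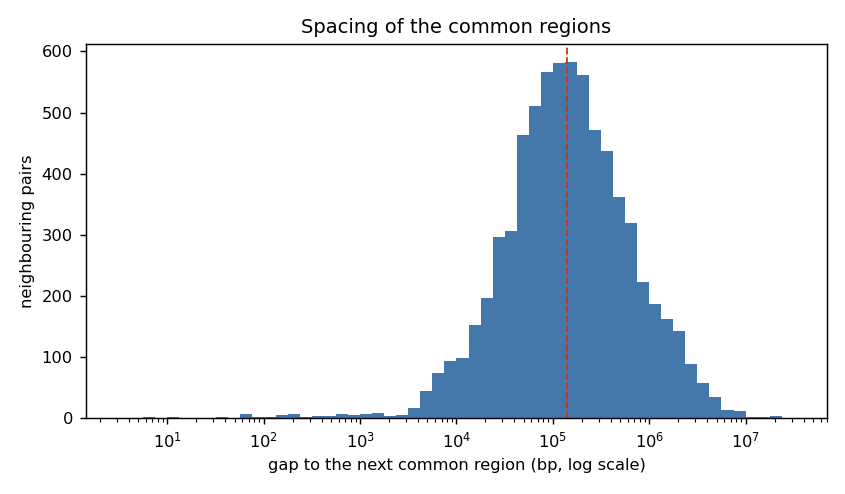
Number of neighbouring pairs of common regions (vertical axis) by the gap between them in bp (horizontal axis, log scale); the dashed line is the median of 139 kb. Most gaps fall between about 10 kb and 1 Mb, and very few lie under 3 kb.

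A few dense runs stood apart from this spacing. Runs of 2 or more common regions less than 10 kb apart numbered 253 and held 546 regions (7.64%), and 232 of them were pairs. The longest run held 12 common regions in 19.7 kb on chromosome 2 from 133015102 to 133034844. Next were 9 in 18.9 kb on chromosome Y from 10019062 to 10037981 and 5 in 24.3 kb on chromosome 19 from 40926607 to 40950946. A further run of 4 filled only 3.39 kb on chromosome 17 from 45212934 to 45216324, and another of 4 lay on chromosome 11 from 62358721 to 62390000. The runs on chromosomes 2, Y and 17 differed from the rest in form: their regions had median widths of 304.5, 305 and 271 bp, against 1353 bp over all common regions, and their 3 peaks were almost congruent, with a median of 92.7%, 90.6% and 91.8% of the region in all 3 lists. All 12 regions of the first run and all 4 on chromosome 17 were at the top score in every list, as were 6 of the 9 on chromosome Y. The runs on chromosomes 19 and 11 were wider, with medians of 933 and 1331 bp. Whether the 3 narrow runs fall in parts of hg19 known to collect excess reads in any library, and so whether they are open chromatin, was not tested.

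Narrow common regions were few, and many of those with top scores in all 3 lists lay in the dense runs. Only 80 regions (1.12%) were under 500 bp wide, and 39 of them (48.8%, 37.4 to 60.2) had all 3 lists at the top score. At widths of 500 to 1000 bp this share was 20.9% (18.4 to 23.5). It was 31.5% (30.0 to 33.1) at 1000 to 1500 bp and 38.4% (36.3 to 40.5) at 1500 to 2000 bp. The dense runs of 4 or more regions held 22 of the 80 narrow regions and 20 of the 39. Outside the runs 19 of 58 narrow regions (32.8%) had all 3 lists at the top score. This was near the 32.5% of all common regions and above the 20.9% at widths of 500 to 1000 bp. On chromosome Y, 9 of the 15 common regions belonged to the one run, and the other 6 were 724 to 1341 bp wide.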

How the data were processed

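ATAC-seq was run on 6 libraries in 3 groups of 2, with 75000 cells and 30 minutes at 37 °C per reaction, per the labels' protocols. The authors deposited 1 peak list per group with a whole-number score per peak. An irreproducible discovery rate of 0.1, filtering, merging and scoring are named per the labels, and hg19 is the build given by the submitters' processing notes. Not given in the sources used here are the aligner, the peak caller, any read filter and the read depth.

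Peaks were joined in Python 3.11.15 (pandas 2.3.3, numpy 2.4.6), and intervals came from scipy 1.17.1. Positions are hg19, counted from 1. Code for joining and coverage was tested on simulated lists and recovered 10 of 10 planted answers. Shares carry exact (Clopper-Pearson) 95% intervals, medians order-statistic ones. The members and measures were chosen with earlier results of these data known. Regions named are the extremes of score, core, overlap, isolation, run length and relative width, the leading ones printed; the runs of 4 beyond the 3 longest were chosen after their values were seen. Planned gene, promoter and motif comparisons need a genome and annotation of hg19 and were not run. Alternatives tried were a 50% reciprocal overlap, linking within 500 bp, the top 50% by score, lists of equal length, autosomes only, peaks reset to 500 bp, leaving out the dense runs, and score bands in lists of equal length, the last 2 chosen after seeing the data.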

Additional observations from a re-analysis of the deposited data

How the results depend on the processing

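Of 85 comparisons of a result with an alternative, 49 stayed inside the counting interval of the reported value (a count within 1.5 times), and 36 moved; no width ratio crossed 1, but in lists of equal length the order of the shCON CDT and shCON DHT shares turned. Nothing moved on autosomes only or without the 5 dense runs. With a 50% reciprocal overlap 27.9% of joined regions were common, holding 54.2% of shCON CDT, 50.7% of shCON DHT and 44.3% of shRB CDT peaks; 99.8% had 1 peak of every list, by construction nearly all. There 100% had a base in all 3 lists, the median core was 65.6%, 33.9% were at the top score in all lists and the nearest other was at 79.1 kb. With peaks linked within 500 bp the values were 36.3% of regions, 62.6% of shCON CDT and 50.9% of shRB CDT peaks, 83.5% with single peaks, 99.3% with a base in all lists and a core of 64.1%. The top 50% by score, fewer peaks by construction, left 4113 common regions (44.5%) with 69.2%, 66.7% and 56.3% of the peaks, 93.0% with single peaks, 99.95% with a base in all lists, a core of 67.6%, a shRB CDT to shCON CDT width ratio of 1.03 (1.031 against 1.038 as reported) and a distance of 120 kb. Lists of equal length gave 37.0% of regions, 58.8%, 60.8% and 58.0% of peaks, 88.2% with single peaks and 33.8% at the top score. Peaks reset to 500 bp gave 33.2%, then 59.6%, 57.3% and 48.5% of peaks, and 92.3% with single peaks. The cause was not tested beyond these constructions. No paired analysis was possible because the authors combined both replicates of a group in 1 list, and no replicate could be left out. Settings planned for gene starts, gene lists and motifs were not run.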
